A study of Mus musculus with 2 samples.

Results

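Type I interferon response genes are the genes that cells switch on when interferon-alpha or interferon-beta binds its receptor. A list of 38 such genes was followed gene by gene in cells from a healing mouse calvarial defect and the bone around it. The genes were taken by symbol alone, and 36 of the 38 were found once each among the 32285 genes of the files. Mx1 and Mx2 were not analysed here. The single cells of 2 libraries were compared, 1 from mice given gambogic amide (GA), a small molecule known as an agonist of the nerve growth factor receptor TrkA, and 1 from mice given the vehicle, called control. In both, the cells came from a segment of skull bone with a frontal bone defect of 1.8 mm at its center. The mice were male C57BL/6J of 2 months, and the segment was harvested 7 days after surgery. The labels give injections of 100 µL from 24 h before injury, with GA at 1.2 mg/kg in 10% DMSO for the treated mice and 10% DMSO alone for the control mice. The sources used here disagree on the GA dose, and that of the labels is given. Each library pooled 5 mice, so a condition has 1 library, no test between the conditions was possible, and no p-value is given.

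In the type I interferon pathway, cytosolic RNA or DNA sensed inside a cell leads to secretion of interferon, and interferon bound to Ifnar1 and Ifnar2 activates the kinases Jak1 and Tyk2. A complex of transcription factors then enters the nucleus and binds a DNA element shared by many of the genes, the interferon-stimulated response element. The proteins made block viral replication at many steps, and several of them sense RNA, modify proteins with Isg15 or feed back on the pathway. In bone, interferon-beta is known to restrain osteoclast formation, and neutrophils, monocytes and macrophages respond strongly to interferon in many tissues.

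A level below is the number of unique molecular identifiers (UMIs) of a gene per 1e+06 UMIs of a cell class (CPM), after summing all cells of the class in a library. A ratio is log2 of the GA level over the control level. Brackets give 95% intervals, exact Poisson for a level and exact conditional binomial for a ratio. All intervals cover counting error only, since the spread between mice was not measured. Genes with at least 100 UMIs in a class, both libraries together, were counted, and a gene is called higher or lower where its levels differed by at least 1.5-fold. Classes were named by marker genes after clustering without the 36 genes among the variable genes, and are written X-like.

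The kept cells numbered 8388 in the GA library and 7523 in the control library, with medians of 10800 and 16401 UMIs per cell. Their makeup differed: mesenchymal-like cells were 9.16% of GA and 23.6% of control cells, and mature neutrophil-like cells were 26.6% and 14.0%. The 2 libraries shared 20 barcode sequences among kept cells. Clusters were named by fixed markers, so the levels of these markers describe the classes and cannot check the names. In 10 of the 11 classes used, each fixed marker was at least 2-fold higher than in the other cells. In monocyte-like cells 7 of 8 were, Ace being the exception. A cluster led by Acod1 with mature neutrophil markers (672 GA and 379 control cells), a cluster led by Ppbp and a cluster led by Bank1 and Ighd were left without a name.

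The DNA element of the pathway was looked for in the promoters, to show what the genes share by sequence. RefSeq promoters (GRCm38.p6, 250 bases before to 50 bases after a start) were at hand for 27 of the 36 genes. Its core, TTTC and TTTC with any 2 bases between, on either strand, was in those of 14 of the 27 genes (51.9%) and in those of 3.99% of all 27025 genes with a promoter. It was not particular to them. In lists described below, it was in 10 of 11 genes (90.9%) that answer mainly to interferon-gamma and 19 of 36 further type I interferon genes (52.8%). Of genes of MHC class I presentation 1 of 8 held it, and of the NF-kB response 0 of 7. A second core of interferon-responsive promoters, TTC and GAA with any 3 bases between, was in those of 5 genes (18.5%) and 9.55% of all genes, and 3 genes, Bst2, Eif2ak2 and Oas1a, held both cores. In the interferon-gamma list the second core was in 6 of 11 genes (54.5%), and in the other lists in 8.33% to 14.3%. A match is a description of the letters, not a site of binding. The following stretches are from genes chosen first for holding the first core before the start, and then for having some of the larger ratios described below. Ifi44 and Cmpk2, with ratios above that of Isg15 in mesenchymal-like cells, had promoters at hand without this core and are not shown. They run 5′ to 3′ along the gene, with each match of the first core in capitals, which reads GAAA, any 2 bases and GAAA where it lies on the other strand.
Rsad2 (chr12:26456533-26456602, minus strand): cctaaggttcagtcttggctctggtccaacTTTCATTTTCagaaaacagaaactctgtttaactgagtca
Oas3 (chr5:120777695-120777764, minus strand): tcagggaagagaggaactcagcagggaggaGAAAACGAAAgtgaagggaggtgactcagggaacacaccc
Ifit1 (chr19:34640774-34640843, plus strand): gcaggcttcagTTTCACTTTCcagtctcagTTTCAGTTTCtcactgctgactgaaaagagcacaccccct
Ifit3 (chr19:34583373-34583446, plus strand): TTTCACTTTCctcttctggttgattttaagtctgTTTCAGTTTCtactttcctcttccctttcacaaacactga
Ifit3b (chr19:34607769-34607842, plus strand): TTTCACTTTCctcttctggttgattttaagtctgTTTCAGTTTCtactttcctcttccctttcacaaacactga
Isg15 (chr4:156200845-156200914, minus strand): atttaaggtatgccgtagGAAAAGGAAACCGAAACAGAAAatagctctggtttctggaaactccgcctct
Ifit1, Ifit3 and Ifit3b each held 2 separate matches, and Isg15 held 3 overlapping ones. The stretches of Ifit3 and Ifit3b were letter for letter the same, and these are neighbouring copies of 1 gene, so reads could be split or lost between them and their separate levels are uncertain. The same holds for Oas1a and Oas1g. In mesenchymal-like cells, described next, the median ratio was 1.62 for the 14 genes with the core and 1.07 for the 13 without it, with ranges from 0.61 to 2.60 and from 0.80 to 2.03 that overlapped widely.

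By position (GRCm38, GENCODE vM21), 15 of the 36 genes stood in 5 groups of neighbours under 500000 bases apart. Ifit2, Ifit3, Ifit3b and Ifit1 lie at chr19:34550694-34650009, Oas2, Oas3, Oas1g and Oas1a at chr5:120730333-120907521, and Oasl2 and Oasl1 at chr5:114896936-114937915. Parp14, Dtx3l and Parp9 lie at chr16:35832874-35972605, and Rsad2 beside Cmpk2 at chr12:26442746-26479837.

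Summed over the 36 genes, the level differed between classes and, within some classes, between libraries. In macrophage-like cells it was 5169 CPM (5137 to 5202) in GA and 2719 CPM (2702 to 2737) in control. In dendritic-like cells it was 5124 CPM (5051 to 5198) and 3018 CPM (2976 to 3061), and in mesenchymal-like cells 2941 CPM (2925 to 2957) and 1271 CPM (1264 to 1278). These 3 classes were therefore 1.90-fold, 1.70-fold and 2.31-fold higher in GA. Monocyte-like cells showed the opposite order, with 2257 CPM (2225 to 2290) in GA and 4796 CPM (4731 to 4862) in control. Mature neutrophil-like cells held 2530 CPM (2504 to 2556) and 2978 CPM (2931 to 3026), and immature neutrophil-like cells 753 CPM (742 to 764) and 754 CPM (736 to 772), levels that overlapped. The remaining classes were below the GA level of monocyte-like cells: B lineage-like cells held 942 and 1183 CPM, T or NK-like cells 1675 and 1844 CPM, plasmacytoid dendritic-like cells 1327 and 2214 CPM, and neutrophil progenitor-like cells 515 and 761 CPM. Osteoblast-like cells were lowest, at 101 and 236 CPM. All of these remaining classes, like mature neutrophil-like cells, were thus lower in GA. The ratio of summed levels was -1.23 (-1.43 to -1.03) in osteoblast-like, -0.74 in plasmacytoid dendritic-like and -1.09 (-1.12 to -1.06) in monocyte-like cells. With cells thinned as described below, 50 of 62 control and 64 of 80 GA osteoblast-like cells held no UMI of the 36 genes. The highest control cell held 15 and the highest GA cell 2, and the top 6 control cells held 80.6% of the control UMIs. The osteoblast-like ratio may therefore rest on few control cells, and its value without them is not given. Over all kept cells of a library together, 2258 CPM in GA stood against 1725 CPM in control, a value that also moves with the makeup of the library.

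**Figure D1:**
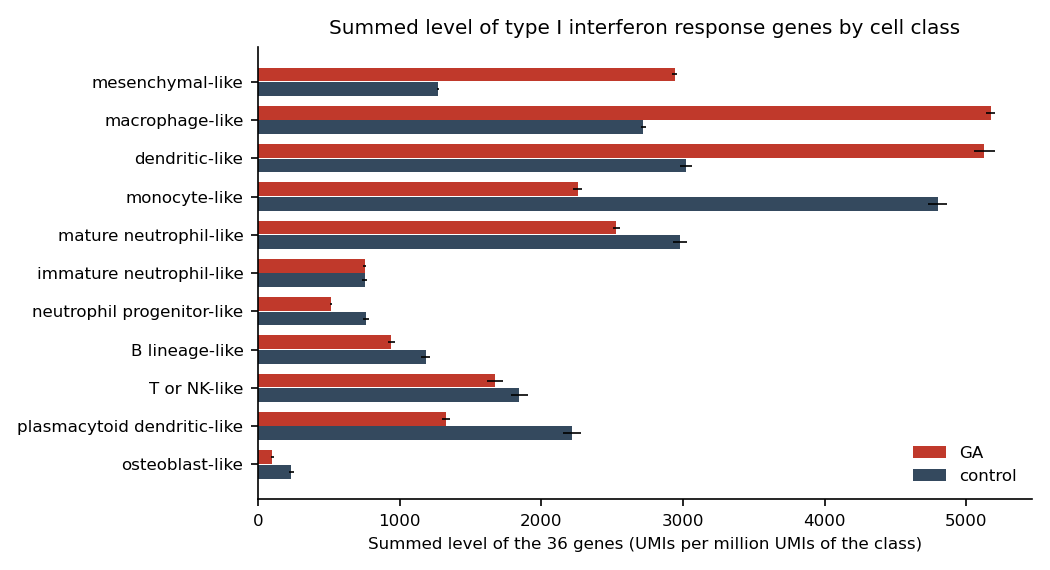
Summed level of the 36 genes in CPM, for 11 cell classes; red bars are the GA library, dark bars the control library, and the thin lines exact Poisson 95% intervals. The GA bar is the longer one in mesenchymal-, macrophage- and dendritic-like cells, and the control bar in monocyte-like cells, at 4796 against 2257 CPM. The control bar is also the longer one in mature neutrophil-, neutrophil progenitor-, B lineage-, T or NK-, plasmacytoid dendritic- and osteoblast-like cells. In immature neutrophil-like cells the intervals overlap.

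The class in which a gene stood highest was not always the same in the 2 libraries. Over 11 classes, 17 of the 36 genes had their highest control level in monocyte-like cells and 13 in mature neutrophil-like cells. In GA, 16 genes were highest in dendritic-like cells, 8 in macrophage-like cells, 7 in mature neutrophil-like cells, 3 in mesenchymal-like cells and none in monocyte-like cells. The same class was highest in both libraries for 11 genes. For 15 genes in GA and 14 in control, the interval of the highest class overlapped that of the next, so their first place is not resolved. The shares of all genes that stood highest in each class are not given, so these counts cannot be credited to the 36 genes in particular.

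In mesenchymal-like cells, the stromal cells that carry collagen genes and include the progenitors of bone, all 36 genes had at least 100 UMIs and all 36 were at least 1.5-fold higher in GA. Of the 14075 genes counted in this class, 5.04% were higher and 7.02% lower by that rule. The median ratio of the 36 genes was 1.33, against a median of -0.00 over all genes counted. The smallest ratio was that of Ddx58 and the largest that of Rsad2.

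Among the antiviral effectors, Rsad2, which encodes the enzyme viperin that makes a chain-terminating nucleotide, stood at 41.1 CPM in GA and 6.79 CPM in control, a ratio of 2.60 (2.47 to 2.73). Cmpk2, its neighbour and a nucleotide kinase of mitochondria, stood at 7.23 and 1.82 CPM, a ratio of 1.99 (1.72 to 2.27). Isg15, a ubiquitin-like protein attached to other proteins, stood at 284 CPM in GA and 86.3 CPM in control, a ratio of 1.72 (1.68 to 1.76). The levels of all 3 genes were apart well beyond counting error. Ifit1, which binds foreign RNA at its 5′ end, stood at 133 and 32.3 CPM, a ratio of 2.04 (1.98 to 2.11). Ifit2 at 12.0 and 5.03 CPM had the smallest ratio of its family, 1.26 (1.08 to 1.44). Zbp1, a sensor of Z-form nucleic acid, had a ratio of 1.34, Bst2, which tethers virus particles to the membrane, 1.06, and Eif2ak2, the kinase PKR that stops translation, 0.85.

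The 6 members of the 2′-5′ oligoadenylate synthetase family, in which the active enzymes make the activator of RNase L, had ratios from 1.32 to 2.31 with a median of 1.79. Oas3 stood at 3.86 CPM in GA and 0.777 CPM in control, and its ratio of 2.31 (1.91 to 2.72) rested on 168 and 77 UMIs. Oas2 stood at 11.1 and 2.65 CPM and Oasl2 at 70.0 and 27.1 CPM. The family was thus among the larger differences of this class, at levels that were low for Oas2 and Oas3 but not for Oasl2.

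The RNA sensors differed less. Ddx58, which encodes RIG-I, stood at 45.4 and 29.7 CPM, a ratio of 0.61 (0.53 to 0.70) just past the 1.5-fold line. Ifih1, which encodes MDA5, had a ratio of 0.79 and Dhx58, which encodes their relative LGP2, one of 1.54. Of the genes that handle Isg15 and ubiquitin, Usp18, the protease that removes Isg15 and dampens the receptor, stood at 33.1 and 9.32 CPM, a ratio of 1.83 (1.71 to 1.95). Herc6, the ligase that attaches Isg15 in mice, had a ratio of 0.99, Trim30a 1.64, and Dtx3l, a ubiquitin ligase, 1.07. Its partner Parp9 and the ADP-ribosyl transferase Parp14 had ratios of 0.87 and 1.12.

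The remaining genes have less uniform roles. Ifi44 stood at 17.8 CPM in GA and 4.35 CPM in control, and Ifi27l2a, the member with most UMIs in this class, at 681 and 303 CPM. The secreted glycoprotein gene Lgals3bp stood at 218 and 106 CPM, the nuclear body gene Sp100 at 40.1 and 15.4 CPM, and the DNA-binding PYHIN gene Ifi204 at 103 and 50.6 CPM. Slfn5 had the second smallest ratio of the 36, at 0.67 (0.62 to 0.72). The ratios were 1.49 for Rtp4, a chaperone of membrane receptors, 1.06 for Xaf1, which binds an inhibitor of apoptosis, 0.85 for Samd9l, 0.82 for Ifi47 and 0.80 for Ifi35.

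All 4 mesenchymal-like clusters were higher in GA. The median ratio was 1.69 in the cluster led by Col5a3 and Tnc, 1.16 in that led by Clec3b and Mmp3, 0.73 in that led by Eln and Mgp (45 GA cells) and 0.69 in that led by Mmp13 and Gpx3. Their summed levels in GA were 2928, 3773, 2184 and 1325 CPM, against 935, 2084, 1282 and 738 CPM in control. The order of the clusters by level was thus not their order by ratio.

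Markers of other cell types also differed between the libraries in this class. All 7 immature neutrophil markers and all 9 mature neutrophil markers had UMIs in both libraries, at 186 and 123 CPM in GA against 37.7 and 41.3 CPM in control. This was 0.189% and 0.306% of their level in the neutrophil-like classes in GA. All 10 macrophage markers had UMIs too, at 186 CPM in GA and 398 CPM in control, so these were lower in GA. The 7 B lineage markers stood at 1662 and 1044 CPM, 13.8% and 8.66% of their level in B lineage-like cells. How these 7 genes shared the UMIs is not given, so the sum does not measure B cell RNA. The 6 erythroid markers stood at 51.5 and 11.03 CPM, and all markers of both lists had UMIs in both libraries. The part of these markers of other cell types in the ratios was not tested.

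In macrophage-like cells, 34 of the 36 genes were higher in GA and none lower. The background was 5.46% of 11062 genes higher and 2.71% lower, and the median ratio was 0.97 against 0.06 over all genes counted. Bst2 and Lgals3bp, with ratios of 0.51 and 0.52, were the 2 not past 1.5-fold. The largest ratios were those of Ifit3b, 12.96 and 3.24 CPM (2.00, interval 1.67 to 2.33), Cmpk2, 33.3 and 8.36 CPM (1.99, 1.79 to 2.20), and Ifit1, 75.5 and 21.0 CPM (1.85, 1.72 to 1.98). Rsad2 stood at 161 CPM in GA and 52.2 CPM in control, a ratio of 1.62 (1.54 to 1.71).

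The genes thus differed in rank between these classes. Oas1a had a ratio of 1.32 in mesenchymal-like and 0.59 in macrophage-like cells, Oas2 2.07 and 0.86, and Trim30a 1.64 and 0.78, each pair with intervals apart. Ifi47, a GTPase that answers to interferon-gamma as well, had 0.82 in mesenchymal-like and 1.34 in macrophage-like cells. Within the macrophage-like class, the median ratio was 1.07 in the cluster led by Arg1 and Mmp12 and 0.91 in that led by Apoe and C1q genes. A small cluster led by Fcna and Cd5l, with 56 GA and 43 control cells, went the other way at -0.26 with 10 genes counted. Markers of immature neutrophils stood at 290 CPM in GA and 87.9 CPM in control in this class, and those of erythroid cells at 2654 and 1229 CPM, all of them with UMIs. Their part in the ratios was not tested.

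Dendritic-like cells, 179 in GA and 331 in control, had 33 genes counted, of which 29 were higher and none lower, beside 4.83% and 4.04% of 7723 genes. Their median ratio was 0.81, against 0.02 for all genes. Ifit3 stood at 52.0 CPM in GA and 12.5 CPM in control, a ratio of 2.06 (1.67 to 2.45), and Ifi47 at 56.6 and 18.9 CPM, a ratio of 1.58 (1.25 to 1.92). Ifi35, at 84.3 and 72.8 CPM, had a ratio of 0.21 with an interval that held 0 (-0.00 to 0.42). Markers of macrophages, all 10 with UMIs, stood at 7745 CPM in GA and 6591 CPM in control in this class, 28.5% and 19.7% of the level in macrophage-like cells, and the 8 monocyte markers at 1000.4 and 646 CPM. Their part in the ratios was not tested. This class was the least stable to how cells were named: with each cell named by its own markers, the median was 0.35 and 7 of 29 genes counted were higher.

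In monocyte-like cells, 411 in GA and 336 in control, the direction was the other way. Of the 33 genes counted, 31 were lower in GA and none higher, beside 6.21% of 8257 genes lower and 7.24% higher. The median ratio was -1.07, against 0.02 over all genes counted, and all 33 intervals lay below 0. The share of all genes with an interval below 0 is not given. Without Harmony, the step that aligns the libraries before clustering, the median was -0.68 and 20 of 33 genes counted were lower. The 2 genes not past 1.5-fold were Eif2ak2, at 62.9 CPM in GA and 74.9 CPM in control, and Dhx58, at 17.3 and 25.6 CPM.

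Rsad2 again stood at the end of the list. It was at 15.9 CPM in GA and 80.1 CPM in control, a ratio of -2.33 (-2.63 to -2.03). Ifit3 stood at 9.62 and 41.2 CPM, a ratio of -2.10 (-2.50 to -1.71), and Ifit2 at 9.01 and 31.9 CPM, a ratio of -1.82 (-2.25 to -1.41). Isg15 stood at 51.6 and 108 CPM, a ratio of -1.07 (-1.26 to -0.88), and Ifi27l2a at 823 and 1989 CPM, a ratio of -1.27 (-1.32 to -1.23). Every one of these control levels was above the GA level by at least 2-fold. Oas3, the second largest ratio in mesenchymal-like cells, had one of the smaller differences here, at 29.6 and 45.8 CPM. Sp100, at 187 and 294 CPM, and Ifi47, at 24.8 and 54.2 CPM, were lower as well. The remaining 3 genes fell short of the minimum: Ifi44 with 2 and 13 UMIs, Ifit3b with 9 and 23, and Oas1g with 23 and 54.

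The monocyte-like cells of the 2 libraries also differed in other ways. All 5 neutrophil progenitor markers had UMIs, at 693 CPM in GA and 98.2 CPM in control, the 10 macrophage markers stood at 1294 and 2961 CPM, and the dendritic markers, 7 and 8 of 8 with UMIs, at 152 and 465 CPM. The markers of monocytes themselves stood at 4783 and 4337 CPM. At a finer resolution 3 clusters were named monocyte-like, with 193, 257 and 169 GA cells and 219, 105 and 143 control cells. Together they hold more cells than the class above, so they are not a split of it. Each was lower in GA, with medians of -0.55, -0.60 and -0.78, while the -1.07 of the class rests on a different set of cells. In these 3 clusters 13 of 31, 11 of 22 and 24 of 33 genes counted were lower, beside 6.67%, 3.40% and 5.03% of all genes counted there. The part of these differences in the ratio of the class was not tested.

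Of the 33 genes counted in mesenchymal-, macrophage- and monocyte-like cells alike, 29 were higher in the first 2 classes and lower in monocyte-like cells. Of these, 24 were higher in dendritic-like cells as well. The 4 others were Bst2 and Lgals3bp, not past 1.5-fold in macrophage-like cells, and Dhx58 and Eif2ak2, not past it in monocyte-like cells. Among all genes counted in each class, 5.04% were higher in mesenchymal-like and 5.46% in macrophage-like cells, and 6.21% were lower in monocyte-like cells. The share of all genes with the joint pattern was not counted. The difference between the classes has 1 library in each arm and was not tested.

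**Figure D2:**
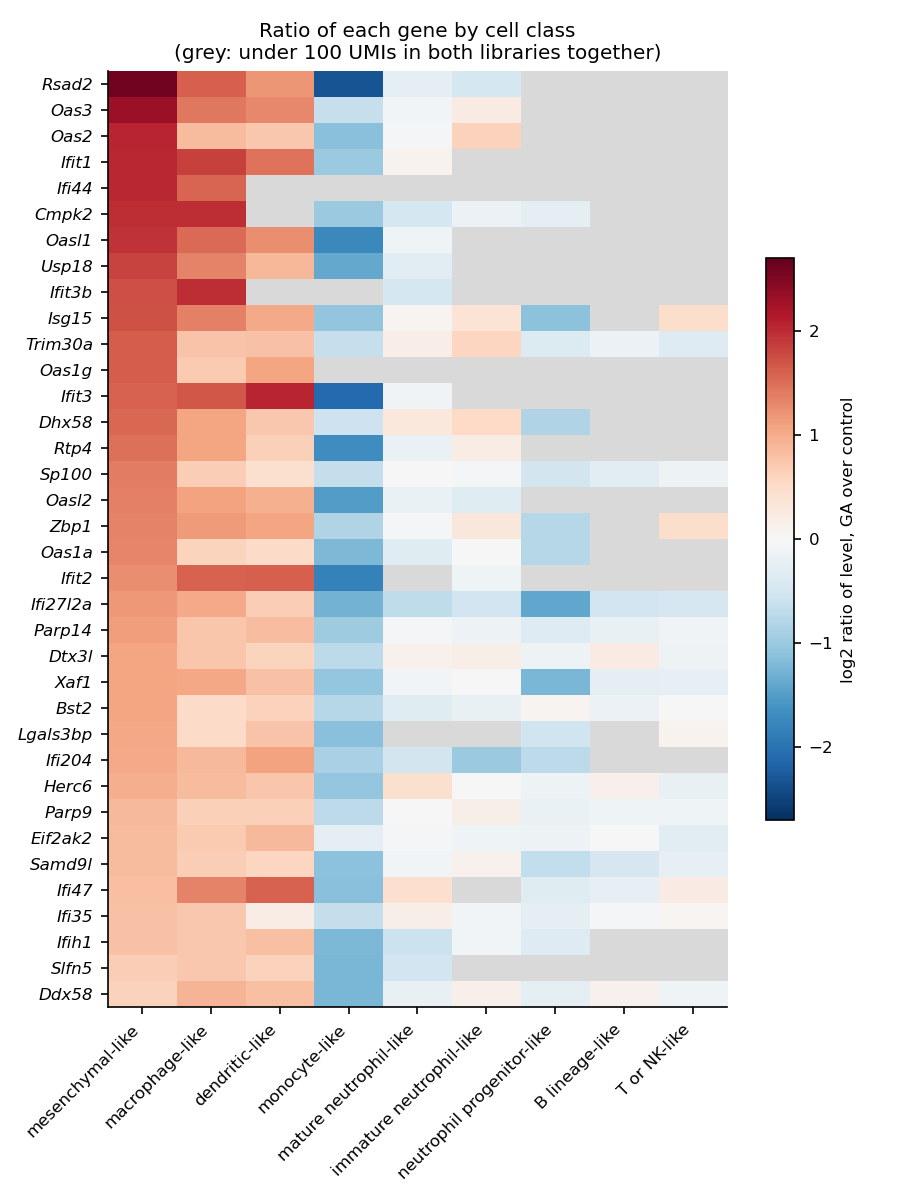
Log2 ratio of level, GA over control, for each of the 36 genes (rows, ordered by the ratio in mesenchymal-like cells) in 9 cell classes (columns); red is higher in GA, blue lower, and grey marks under 100 UMIs. The first 3 columns are red in every coloured cell, the monocyte-like column is blue throughout, and the neutrophil and lymphocyte columns are pale apart from Ifi27l2a, Isg15 and a few others.

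**Figure D3:**
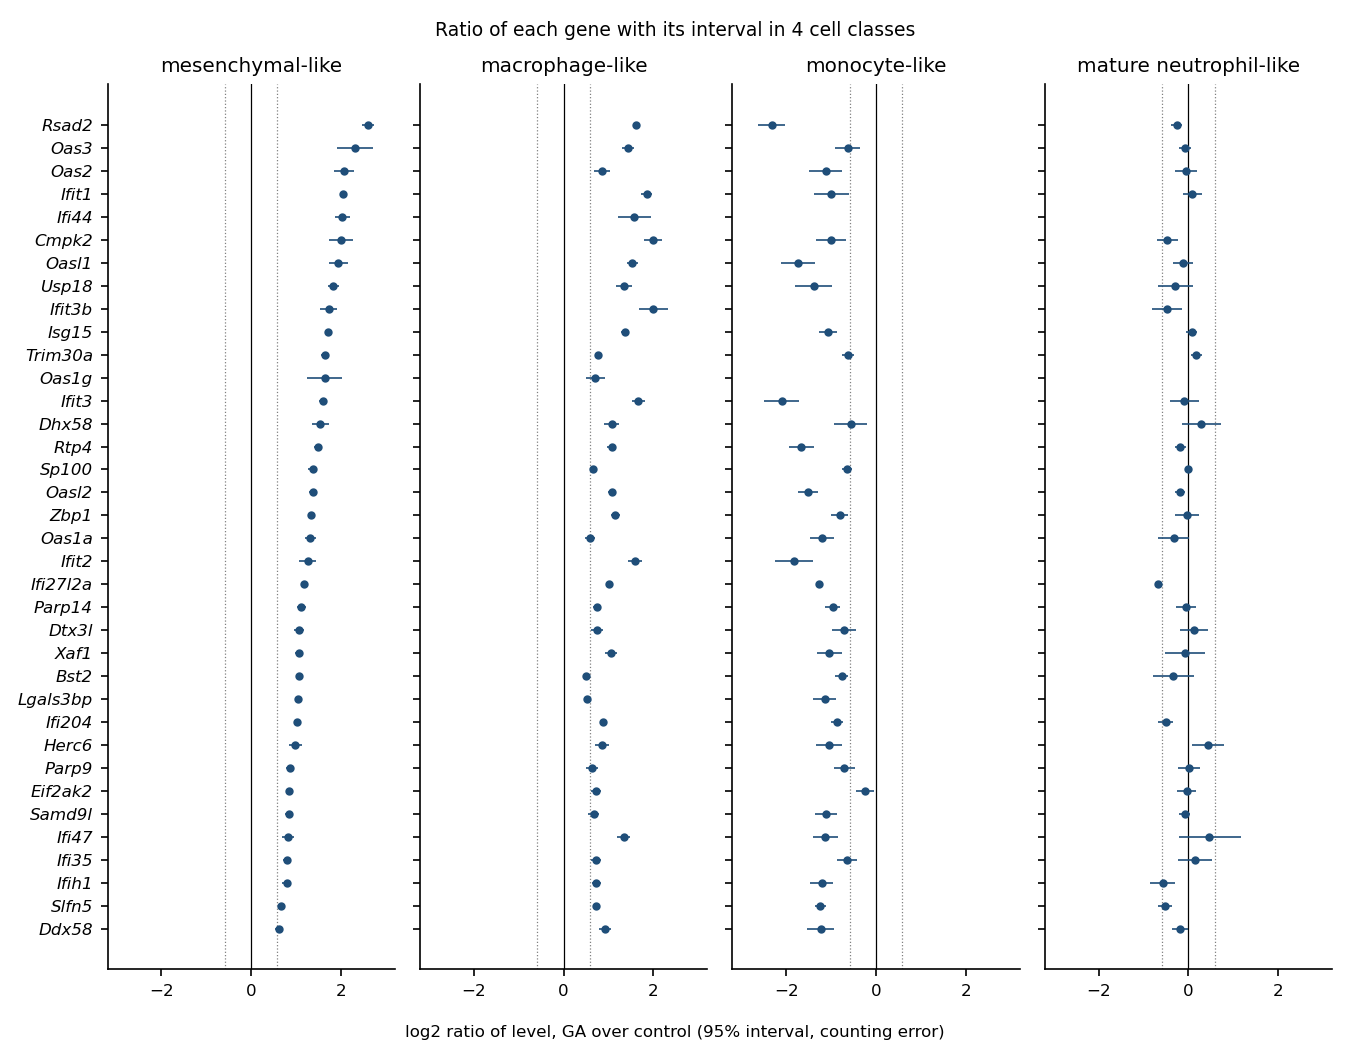
Log2 ratio of level, GA over control, with exact 95% intervals for counting error, in 4 cell classes; dotted lines mark 1.5-fold and the solid line equality. All 36 intervals lie above 0 in mesenchymal- and macrophage-like cells, all 33 below 0 in monocyte-like cells, and those of mature neutrophil-like cells stand around 0. The shares of all genes with intervals on one side of 0 are not given.

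Mature neutrophil-like cells, 2232 in GA and 1051 in control, held these genes at high levels that differed little between the libraries. Of 32 genes counted, 1 was lower and none higher, beside 7.68% and 1.91% of 6650 genes. The median ratio was -0.08, against -0.14 over all genes counted. The gene past the line was Ifi27l2a, at 494 CPM in GA and 792 CPM in control, a ratio of -0.68 (-0.74 to -0.63). Isg15 stood at 160 and 152 CPM, a ratio of 0.07 (-0.05 to 0.19), Oas3 at 126 and 133 CPM, and Sp100 at 328 and 329 CPM. Slfn5 and Ifi204, at 64.2 and 91.99 CPM and at 61.9 and 87.9 CPM, were lower in GA beyond counting error but short of 1.5-fold. For 2 genes the interval lay above 0, for 10 below it, and for the other 20 it held 0. The same shares over all genes are not given, so these counts say little about the genes.

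The classes in which a gene was low or high differed between genes. Oas3 stood at 126 and 133 CPM in mature neutrophil-like, at 57.7 and 21.4 CPM in macrophage-like and at 3.86 and 0.777 CPM in mesenchymal-like cells. Ifi44 had 2 UMIs in all mature neutrophil-like cells of GA and 0 in control, while it had 774 and 431 UMIs in mesenchymal-like cells. Lgals3bp was at 2.80 and 4.31 CPM in mature neutrophil-like cells and at 304 and 212 CPM in macrophage-like cells. Bst2 was highest in plasmacytoid dendritic-like cells, at 598 CPM in GA and 1278 CPM in control, and at 9.31 and 11.7 CPM in mature neutrophil-like cells. Samd9l, an antiviral protein that blocks translation, was at 139 and 147 CPM in mature and at 130 and 120 CPM in immature neutrophil-like cells. It was at 7.91 and 12.5 CPM in the neutrophil progenitor-like class, whose mixed makeup is described below.

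In immature neutrophil-like cells 26 genes were counted, with 1 higher (Oas2, 14.0 and 9.09 CPM) and 1 lower (Ifi204, 2.38 and 4.76 CPM), beside 1.22% and 5.26% of 8535 genes. In neutrophil progenitor-like cells 22 were counted, with none higher and 8 lower, beside 2.44% and 3.03% of 9816 genes, and the median ratio was -0.36. This count was between 0 and 4 with other doublet, clustering or mitochondrial settings. Of the 2 clusters of this class, that led by Gria3, F13a1 and Mpo (276 GA and 109 control cells) had the monocyte genes Nrg1 and Ms4a6c among its leading genes. It held 599 CPM in GA and 1028 CPM in control, with 10 of 20 genes counted lower beside 4.41% of 9214 genes. At resolution 2 a cluster with Nrg1, F13a1, Ms4a6c, Gria3 and Ass1 among its leading genes (257 GA and 105 control cells) was named monocyte-like. The lower genes of this class thus cannot be credited to neutrophil progenitors alone. The other cluster of the class, led by Elane and Prtn3, held 333 and 356 CPM, with none of 9 lower beside 3.41% of 6914 genes. Isg15 stood at 3.66 and 7.85 CPM in neutrophil progenitor-like cells, both clusters together, 15.002 and 11.7 CPM in immature and 160 and 152 CPM in mature neutrophil-like cells.

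Lymphocytes differed little. In B lineage-like cells none of 14 genes counted was higher or lower, beside 1.36% and 1.31% of 8480 genes, and in T or NK-like cells none of 17, beside 1.81% and 4.42% of 5473 genes. With so few genes and such shares, counts of 0 say little about the genes. Ifit1, Ifit3, Rsad2 and Usp18 were under the minimum in both classes, and Isg15 in B lineage-like cells. The median ratios of B lineage-like and T or NK-like cells were -0.16 and -0.12. Their ratios of summed UMIs were -0.33 (-0.38 to -0.28) and -0.14 (-0.21 to -0.07). In T or NK-like cells Ifi47 stood at 76.7 CPM in GA and 65.6 CPM in control, its highest level in any class. In control its first place is not resolved, since the interval overlapped that of monocyte-like cells, at 54.2 CPM. In plasmacytoid dendritic-like cells 15 genes were counted, with 1 higher (Ifih1) and 2 lower (Bst2 and Ifi27l2a, the latter at 153 and 278 CPM), beside 5.52% and 6.40% of 8218 genes, in a cluster whose leading genes include Flt3 and Meis1. The 6 plasmacytoid dendritic markers themselves stood at 814 CPM in GA and 1815 CPM in control there, and their part in these ratios was not tested. In osteoblast-like cells only Bst2 was counted, at 17.9 and 33.0 CPM.

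Per cell, the UMIs of the 36 genes were compared after thinning every cell to 2000 UMIs. In mesenchymal-like cells 49.7% of GA cells (46.1 to 53.3) and 20.7% of control cells (18.8 to 22.7) held at least 5 such UMIs, with exact Clopper-Pearson intervals. In macrophage-like cells it was 71.1% (67.8 to 74.2) and 47.7% (45.1 to 50.3), and in dendritic-like cells 69.3% and 52.6%. In monocyte-like cells it was 42.6% (37.7 to 47.5) and 73.2% (68.1 to 77.9), and in mature neutrophil-like cells 37.4% (35.4 to 39.5) and 42.0% (38.9 to 45.01). In osteoblast-like cells, the class with the lowest level, it was 0 of 80 GA cells, which allows up to 4.51% by the same interval and 3.75% by a floor of 3 cells, and 1 of 62 control cells (1.61%). The cut falls inside the distribution: 135 of 764 GA and 244 of 1777 control mesenchymal-like cells held 4 or 5. Without thinning the shares were 98.7% and 97.7% in mesenchymal-like, 97.1% and 98.8% in monocyte-like and 80.2% and 74.7% in mature neutrophil-like cells, values that depend on depth.

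The whole distribution was shifted in some classes. The median mesenchymal-like cell held 4 UMIs of the 36 genes in GA and 2 in control, and the median monocyte-like cell 4 and 8. Cells with none were 7.98% and 24.0% of mesenchymal-like cells and 9.49% and 0.595% of monocyte-like cells. In mature neutrophil-like cells the median was 3 and 4, the 99th percentile 47.6 and 45.7, and the 10% of cells with most held 44.7% and 42.1% of all UMIs of the 36 genes. In mesenchymal-like cells the top 10% held 29.9% and 36.2%.

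**Figure D4:**
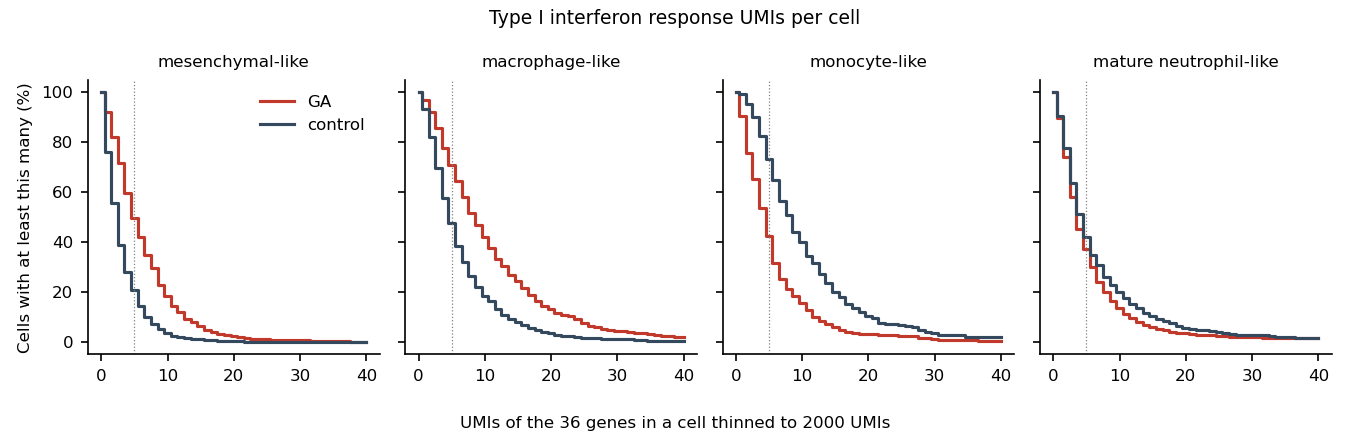
Share of cells (vertical axis, percent) with at least a given number of UMIs of the 36 genes (horizontal axis) after thinning each cell to 2000 UMIs, for the GA (red) and control (dark) libraries; the dotted line marks 5 UMIs. The GA curve lies above in mesenchymal- and macrophage-like cells (49.7% against 20.7% and 71.1% against 47.7% at 5 UMIs), below in monocyte-like cells, and close to the control curve in mature neutrophil-like cells.

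The long tail in mature neutrophil-like cells was made of cells that used many of the genes at once. For each gene, the 10% of cells in each library with most thinned UMIs of the other 35 genes were set against the rest. Of the 32 genes counted, 30 were at least 2-fold higher in these cells, with a median of 5.36-fold. With cells ranked by all 36 genes, 4.68% of 6606 other genes were at least 2-fold higher in the top cells. Ifit3 was at 218 CPM in them and 2.87 CPM in the rest, 75.8-fold (56.4 to 104). Ifit1 was at 496 and 9.40 CPM, 52.8-fold, Herc6 at 166 and 7.72 CPM, 21.6-fold, and Rsad2 at 933 and 56.9 CPM, 16.4-fold. Samd9l at 1.81-fold and Sp100 at 1.85-fold were the 2 genes under 2-fold, and Oas3 stood at 2.43-fold. The gap between the high cells and the rest thus ranged widely among the genes. The median fold was 5.56 in monocyte-like, 3.58 in mesenchymal-like and 3.23 in macrophage-like cells. For these classes the share of other genes is not given, and the part of differences among their cells in the folds was not tested. In mature neutrophil-like cells the cluster led by Cass4 and Il1b made up 51.5% of the top cells and 20.1% of the rest. The part of this in the folds was not tested. By cluster, that led by Cass4 and Il1b held 4870 CPM in GA and 5759 CPM in control, and the other 3 mature neutrophil-like clusters between 1829 and 2692 CPM.

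**Figure D5:**
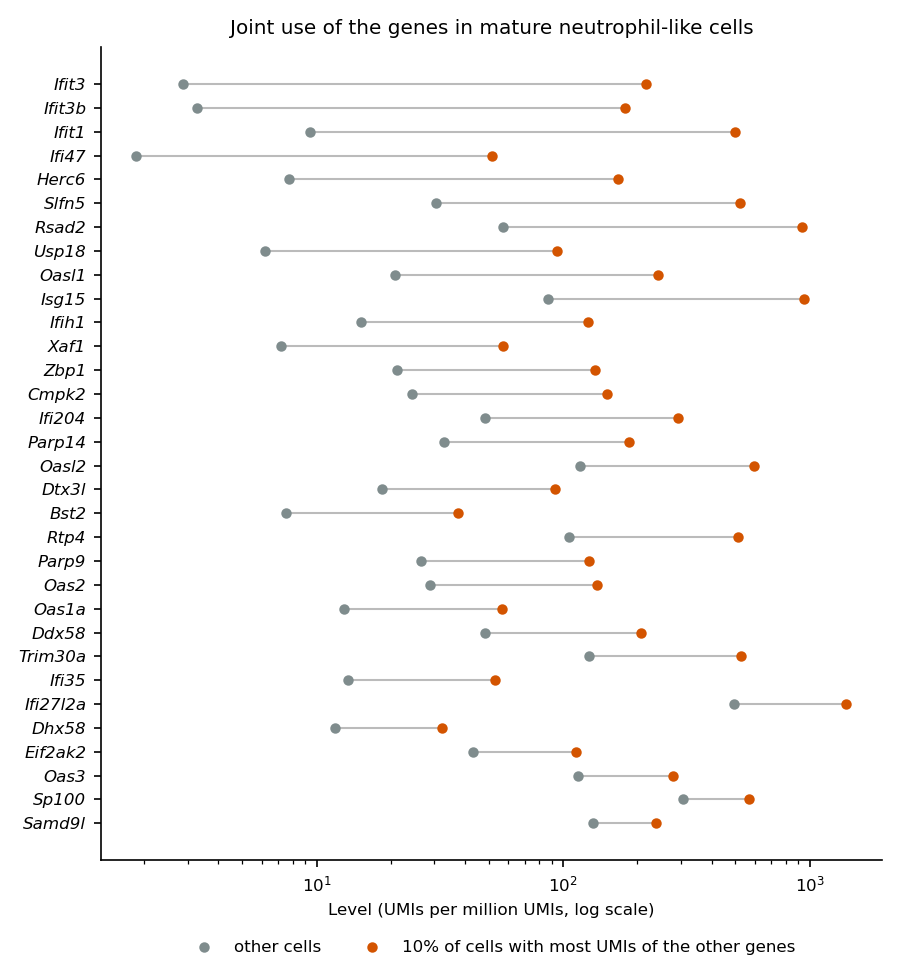
Level of each of 32 genes (CPM, log scale) in mature neutrophil-like cells of both libraries, in the 10% of cells with most UMIs of the other genes (orange) and in the remaining cells (grey). The gap is widest for Ifit3 (218 against 2.87 CPM) and narrowest for Samd9l.

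The genes upstream of the 36 were listed by their place in the pathway. Of 11 interferon genes, 3 were seen at all: Ifnb1 with 13 UMIs from 4 cells of the GA library and 9 UMIs from 6 of the control library, Ifnk with 8 and 9 UMIs, and Ifng with 144 and 129 UMIs, of which 140 and 116 were in T or NK-like cells. The other 8, among them Ifna1, Ifna2, Ifna4, Ifna5 and Ifna6, had 0 UMIs in both libraries. Further interferon-alpha genes were not on the list. None of the 3 reached a depth at which a difference between classes could be seen, except Ifng in T or NK-like cells, at a ratio of 0.15.

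The receptors and kinases differed little. None of 7 was past 1.5-fold in mesenchymal-, macrophage- or monocyte-like cells, where most of all genes counted were not past it either. Ifnar1 stood at 33.0 CPM in GA and 31.9 CPM in control in mesenchymal-like cells, and Ifnar2 at 114 and 116 CPM. In monocyte-like cells their ratios were -0.23 and -0.16. The brakes Socs1 and Socs3 had ratios of 0.14 and -0.20 in mesenchymal-like and 0.52 and -0.32 in macrophage-like cells, none past 1.5-fold.

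Some transcription factors of the pathway had ratios of the same sign as the 36 genes. Irf7, itself induced by interferon, stood at 92.4 CPM in GA and 23.3 CPM in control in mesenchymal-like cells, a ratio of 1.99 (1.92 to 2.06), and its ratio was 1.55 in macrophage-like, 1.33 in dendritic-like and -1.26 in monocyte-like cells. Stat2 had ratios of 1.02, 0.91, 0.29 and -1.55 in the same order, and Irf9 0.76, 0.43, 0.17 and -0.39. Irf3, which is not induced, had 0.20, 0.02, 0.31 and 0.04, and Irf1 0.34, 0.05, 0.48 and -0.95. Irf5 and Irf8 had -0.27 and -0.62 in mesenchymal-like cells.

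Further lists from the same pathway were chosen with earlier results of these data known. Beside their counts, 5.04% of all genes counted were higher and 7.02% lower in mesenchymal-like cells. These shares were 5.46% and 2.71% in macrophage-like, 4.83% and 4.04% in dendritic-like, and 7.24% and 6.21% in monocyte-like cells. Of 34 further type I interferon genes counted in mesenchymal-like cells, 25 were higher and none lower, of 35 in macrophage-like cells 26 were higher and none lower, and of 32 in monocyte-like cells 19 were lower and none higher. Phf11b had a ratio of 2.01 in mesenchymal-like cells and Ifi205 -2.34 in monocyte-like cells. Of the GTPases and chemokines that answer mainly to interferon-gamma, 9 of 15 were higher in mesenchymal-like and 10 of 15 in macrophage-like cells, and 6 of 9 were lower in monocyte-like cells. Cxcl9, a chemokine for T cells, had ratios of 1.55 and 3.59 in the first 2 classes, and Irgm1 one of -1.13 in the third. Of 9 genes of antigen presentation by MHC class I, 4 were higher in mesenchymal-like cells (H2-D1 at 0.79, B2m at 0.74), 2 in macrophage-like cells and 1 lower in monocyte-like cells (H2-K1, -0.66). In dendritic-like cells 14 of 32 further type I interferon genes, 6 of 9 of the interferon-gamma list and 0 of 9 MHC class I genes were higher, and none lower. Of 9 sensors and adaptors, 7 were counted in mesenchymal-like cells and 1, Tlr3, was higher (0.73). In macrophage-like cells 1 of 8 was higher (Myd88, 0.68), and in dendritic-like cells 3 of 7 (Tlr3 1.56, Tlr7 1.02, Cgas 0.75).

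Genes of the NF-kB response, a separate inflammatory pathway, were counted beside these. The shares of all genes are those just given, and 1.91% higher and 7.68% lower in mature neutrophil-like cells. In dendritic-like cells 3 of 10 were higher (Ccl3 1.41, Ccl4 1.07, Cxcl2 0.74) and none lower. Of the 10, none was higher in mesenchymal- or macrophage-like cells, and Tnf (-0.81) and Icam1 (-0.76) were lower in mesenchymal-like cells. Their median ratios were -0.06 and -0.17 in these classes, against 1.33 and 0.97 for the 36 genes and 0.71 and 0.78 for the interferon-gamma list. In monocyte-like cells 2 of 10 were lower, with a median of -0.32, and in mature neutrophil-like cells 3 of 10, with a median of -0.29.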

How the data were processed

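Raw UMI counts per gene and barcode, as deposited, came from the authors' run of Cell Ranger (7.0.1 in the file headers) on 10x 3′ libraries with mm10. The members and lists were chosen with earlier results of these data known, and the naming thresholds were set after seeing the data. Barcodes with 500 to 140000 UMIs, 200 to 9500 genes and at most 15% mitochondrial UMIs were kept, and doublets scored against simulated ones were removed at 0.8% per 1000 barcodes (648 in GA and 570 in control). Pearson residuals (theta 100) of 2000 variable genes, without the members and listed genes, gave 50 components, joined with a reimplemented Harmony procedure (theta 2, lambda 1, sigma 0.1), 15 neighbours and Leiden clusters (leidenalg 0.10.2, resolution 1, seed 1). Clusters were named by fixed markers. Counts were summed per class and library (numpy 2.4.6, scipy 1.17.1, Python 3.11.15), and the scripts were tested on simulated data. Summed depth was 159613085 UMIs in GA and 183795560 in control. With 1 library per condition no count model was fitted, and the summed ratios, medians, counts past 1.5-fold and shares of cells were recomputed under those of 20 other settings that apply to each, 1 of them chosen after seeing the data. All members are named. Of the other lists, the factors, receptors, detected ligands, Socs1 and Socs3 are named, with up to 3 genes at either end of each remaining list. Gene positions are from GENCODE vM21. The values of 1 listed factor are not reported here.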

Additional observations from a re-analysis of the deposited data

Results flagged for a closer look

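The median log2 ratio of the genes, GA over control, had opposite signs in different cell classes. It was 1.33 in mesenchymal-like, 0.97 in macrophage-like and 0.81 in dendritic-like cells, where each gene counted was above 0, and -1.07 in monocyte-like cells, where each gene counted was below 0. The medians over all genes counted were -0.00, 0.06, 0.02 and 0.02 in the same order. The share of all genes on either side of 0 is not given. With 1 library per condition the difference between the classes was not tested.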

How the results depend on the processing

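Of 606 values recomputed under 20 alternatives, 467 stayed close to the reported value and 139 moved. Among ratios whose interval excluded 0, 0 changed sign. The medians of mature and immature neutrophil-like cells, whose intervals held 0, ran from -0.12 to 0.059 and from -0.13 to 0.14. No paired analysis was possible because each condition has 1 library. Intervals limit counting error only.

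The log2 ratio of summed UMIs in mesenchymal-like cells was 1.18 with doublets kept, 1.01 at resolution 0.5, 1.12 without Harmony, 1.09 with cells thinned to 2000 UMIs, 1.16 without the 5 top cells of each gene, and 1.30 without Bst2, Ifi27l2a and Lgals3bp. In macrophage-like cells it was 0.94 with doublets kept, with a mitochondrial limit of 10% and at resolution 0.5, 0.96 at resolution 2, 0.90 without Harmony, 0.98 with each cell named by its markers, 0.86 thinned, 0.87 relative to the median gene, 0.88 with totals without 50 abundant genes, 0.90 without the 5 cells and 1.00 without the 3 genes. In monocyte-like cells it was -1.18 with doublets kept, -1.21 at the 10% limit, -1.16 at resolution 0.5, -0.76 without Harmony, -0.87 with cells named singly, -0.92 with interferon genes among the variable genes, -0.93 thinned, -1.05 without the 5 cells and -0.98 without the 3 genes. In mature neutrophil-like cells it was -0.20 at resolution 0.5 and with interferon genes variable, -0.10 relative to the median gene and without the 3 genes, -0.14 with totals without 50 genes, -0.19 without the 5 cells, and -0.21 with the cluster led by Acod1 joined, an alternative chosen after seeing the data.

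The median ratio in mesenchymal-like cells was 1.09 at resolution 0.5, 1.17 without Harmony and 1.04 thinned, and in monocyte-like cells -0.68 without Harmony and -0.74 thinned. In dendritic-like cells it was 0.35 with cells named singly, and in neutrophil progenitor-like cells -0.078 at the 10% limit, -0.077 at resolution 0.5, -0.061 with interferon genes variable and -1.39 thinned.

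Thinning and a minimum of 500 UMIs leave fewer genes counted, so each number below is out of the genes counted under that setting. The shares of all genes under these settings are not given. Genes higher in mesenchymal-like cells numbered 20 of 22 thinned, and in macrophage-like cells 18 of 36 at 2-fold. In dendritic-like cells they numbered 7 of 29 with cells named singly, 7 of 9 thinned, 15 of 19 at the 500 minimum and 11 of 33 at 2-fold. Genes lower in monocyte-like cells numbered 20 of 33 without Harmony, 10 of 11 thinned, 14 of 15 at the 500 minimum and 20 of 33 at 2-fold. In mature neutrophil-like cells, genes lower numbered 2 of 32 at the 10% limit, 2 of 28 thinned, 3 of 32 with cells named singly and 3 of 35 at a minimum of 20 UMIs. They numbered 0 of 32 relative to the median gene and at 2-fold. In this class 1 of 32 was higher at resolution 2 and relative to the median gene, and 1 of 31 without the 5 cells. In neutrophil progenitor-like cells, genes lower numbered 4 of 22 with doublets kept, and 3 of 22 at the 10% limit, at resolution 0.5 and at 2-fold. They numbered 3 of 16 at resolution 2, 3 of 24 without Harmony and 3 of 20 without the 5 cells. With interferon genes variable they numbered 0 of 13, thinned 2 of 2, at the 20 minimum 14 of 31 and at the 500 minimum 1 of 6. The cause of these moves was not tested.

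The shares of cells, GA then control, were 18.5% and 3.71% in mesenchymal-like, 42.1% and 18.5% in macrophage-like, 15.6% and 39.9% in monocyte-like and 13.6% and 20.2% in mature neutrophil-like cells at a minimum of 10 UMIs of the genes. Thinned to 5000 UMIs they were 80.1% and 51.3%, 92.2% and 83.2%, 72.4% and 93.7%, and 72.7% and 74.9%. Without the 3 genes they were 23.2% and 6.30%, 40.0% and 18.2%, 17.3% and 35.4%, and 26.5% and 30.1%. In mesenchymal-like cells they were 62.4% and 30.7% at resolution 0.5 and 57.4% and 25.9% without Harmony. In GA macrophage-like cells the share was 75.2% at the 10% limit, 75.8% at resolution 2 and 75.9% with cells named singly. In monocyte-like cells the shares were 31.2% and 62.2% with doublets kept, 30.1% and 62.9% at the 10% limit, 32.5% and 64.4% at resolution 0.5 and 35.2% and 62.5% at resolution 2, and the GA share was 48.8% without Harmony. In GA mature neutrophil-like cells it was 35.3% with doublets kept.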
